A study of Mus musculus with 426 samples.

Results

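Single tumour cells that carried both green fluorescent protein (GFP) and the epithelial surface protein EpCAM were compared with cells sorted from the same primary tumours for GFP, with no EpCAM gate named in the labels. The members were the single-cell libraries of these 2 sorts with at least 500 detected genes and 10000 RNA counts, bulk libraries left out. They numbered 31 of 33 GFP+EpCAM+ cells (12, 10 and 9 in mice 1, 2 and 3) and 76 of 96 GFP+ cells (31, 18 and 27), or 107 of the 370 single cells of the series that passed this filter. Both sorts came from C57BL/6 males whose pancreas had been injected at 6 to 8 weeks of age with 50000 KPC1199-EGFP cells in matrigel, and whose tumours had grown for 6 to 8 weeks. KPC1199-EGFP is a cultured mouse pancreatic tumour line that carries GFP, so all tumour cells here descend from 1 line in hosts with their own immune cells. Live cells were selected with calcein violet, and CD45+ leukocytes of the same tumours (56 cells kept) served as the reference for background RNA and for DNA. RNA and genomic DNA of each cell were amplified in 1 tube. No row of the RNA file holds GFP itself, so the GFP gate could not be checked in the RNA.

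EpCAM is a homophilic adhesion protein of epithelial cells that associates with claudins at cell borders. Pancreatic ductal tumours arise in an epithelium that makes simple keratins, mucins and tight junctions, and their cells can pass into a mesenchymal state in which these genes are low and collagen, fibronectin and vimentin are made. Transcription factors of the Snail, Zeb and Twist families drive that passage, and Snail and Zeb proteins repress epithelial genes by binding the E-box CACCTG, whereas Grainyhead-like factors activate epithelial genes through the motif AACNGGTT.

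The promoters of the genes called higher in GFP+EpCAM+ cells below were read for both motifs, because E-box repressors act on epithelial promoters. The sequences are the 250 bases before the annotated start of the gene (RefSeq, GRCm38.p6), 5′ to 3′ on the strand of the gene, with every match on either strand in capitals. Epcam (chr17:87635729-87635978, plus strand), which encodes the sorted protein, has E-boxes that begin 187 and 19 bases before the start. Muc1 (chr3:89228806-89229055, plus strand), a membrane mucin, has them at 234 and 70 bases, and a Grainyhead-like match at 180. Spint2 (chr7:29281978-29282227, minus strand), an inhibitor of membrane serine proteases, has 3 (74, 55 and 9 bases). The keratin genes Krt8 (chr15:102004343-102004592, minus strand) and Krt18 (chr15:102027966-102028215, plus strand), whose products pair into 1 filament, have 1 each, at 111 and 214 bases. Elf3 (chr1:135258473-135258722, minus strand), an epithelial transcription factor, has 1 at 140 bases.
Epcam: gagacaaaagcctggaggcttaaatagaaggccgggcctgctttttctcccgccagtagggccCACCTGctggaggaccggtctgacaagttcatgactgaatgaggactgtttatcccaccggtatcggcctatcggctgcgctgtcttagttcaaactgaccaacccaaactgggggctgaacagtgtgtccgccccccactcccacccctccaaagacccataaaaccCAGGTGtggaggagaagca
Muc1: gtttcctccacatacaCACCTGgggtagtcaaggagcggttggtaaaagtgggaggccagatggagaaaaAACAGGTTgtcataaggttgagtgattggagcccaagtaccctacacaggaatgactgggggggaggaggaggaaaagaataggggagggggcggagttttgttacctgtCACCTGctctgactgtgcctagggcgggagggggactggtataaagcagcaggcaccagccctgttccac
Spint2: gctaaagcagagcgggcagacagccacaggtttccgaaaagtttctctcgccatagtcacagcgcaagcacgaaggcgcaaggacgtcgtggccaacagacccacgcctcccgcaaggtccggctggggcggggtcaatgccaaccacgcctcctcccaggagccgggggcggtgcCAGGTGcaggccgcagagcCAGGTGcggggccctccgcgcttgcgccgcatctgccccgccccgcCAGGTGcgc
Krt8: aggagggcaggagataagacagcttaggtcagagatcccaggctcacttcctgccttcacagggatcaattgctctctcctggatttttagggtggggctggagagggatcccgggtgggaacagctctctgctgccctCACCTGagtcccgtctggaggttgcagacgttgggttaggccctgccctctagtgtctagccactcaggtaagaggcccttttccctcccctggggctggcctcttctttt
Krt18: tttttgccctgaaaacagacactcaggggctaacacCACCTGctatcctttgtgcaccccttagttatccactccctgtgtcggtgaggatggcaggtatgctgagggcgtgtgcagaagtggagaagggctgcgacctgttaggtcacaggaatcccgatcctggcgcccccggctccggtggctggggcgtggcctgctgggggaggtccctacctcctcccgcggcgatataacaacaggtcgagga
Elf3: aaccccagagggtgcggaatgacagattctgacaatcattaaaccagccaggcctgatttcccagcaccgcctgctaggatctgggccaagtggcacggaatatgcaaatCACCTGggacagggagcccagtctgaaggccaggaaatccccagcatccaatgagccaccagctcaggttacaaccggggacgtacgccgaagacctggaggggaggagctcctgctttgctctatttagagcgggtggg
None of the printed matches overlaps another. Of 24 genes called higher, 17 had 19 promoters in the table, and 11 of these promoters (57.9%) held an E-box (CACCTG or its reverse complement CAGGTG), against 5657 of 32851 promoters of all genes (17.2%). At least 2 E-boxes were found in 4 of the 19 (21.1%), against 2.1% of all promoters, and AACNGGTT or its reverse complement AACCNGTT in 3 (15.8%), against 588 of all promoters (1.8%). These 3 were the promoter of Muc1 and 2 promoters of Prom1, so they stand for 2 genes only. Of 26 genes called lower, 19 had 20 promoters, and none of these held either motif. A match describes letters in this window and says nothing of whether a factor binds there.

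RNA levels are given as the mean over the cells of a mouse of log2(CPM + 1), where CPM is the count scaled to the depth of the cell, so that every cell weighs alike. A mean ± SD is over the 3 mice, and a gene is called where limma's moderated test of the difference had an adjusted p (Benjamini-Hochberg over all genes tested) under 0.05. The SE printed with a difference is limma's moderated SE, which draws on the spread of all genes in 4 sorts of cells. It does not measure the spread of the single gene over mice. For Krt18, SDs over mice were 0.58 in GFP+EpCAM+ and 2.88 in GFP+ cells, beside an SE of 0.83. Fold changes of low genes are understated on this scale. The test covered 20497 genes and called 24 higher (0.117%) and 26 lower (0.127%) in GFP+EpCAM+ than in GFP+ cells. Of these, 17 higher and 13 lower genes were on a list of known genes, those called higher chiefly on lists of epithelial genes and those called lower on lists of collagens, other matrix proteins and chemokines. With the mouse as a replicate block the counts were 47 and 44, with all 50 genes among them. The calls rested on the mice: without mouse 1, 41 and 33 genes were called, without mouse 2, 5 and 4, and without mouse 3, 0 higher (85 at an unadjusted p under 0.05) and 6 lower. edgeR's quasi-likelihood test on summed counts called 0 in either direction (2042 at an unadjusted p under 0.05), and DESeq2 on the same sums called 383 and 474, of which 12 and 7 are among the genes described here. The sizes also depended on how cells were combined. On summed counts, where deep cells weigh more, the edgeR difference of 23 of the 50 genes was smaller by over 1.5 times and that of 9 was larger. On the log2 of the mean CPM, where cells weigh alike, 14 were smaller and 7 larger by that much. The cause was not tested. Centring each mean on its median over genes, or thinning each cell to 10000 counts, left 0 calls in either direction (limma; 975 and 772 genes at an unadjusted p under 0.05). All 50 genes kept their direction in every one of the 15 alternative analyses. Over all genes tested, the median log2 difference was -0.16, and 71.9% of the differences were below 0.

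Epcam RNA served as a check of the sort, since the gate used the protein. Its level was 7.53, 7.84 and 7.66 in GFP+EpCAM+ cells of mice 1, 2 and 3, and 2.56, 2.51 and 1.54 in GFP+ cells. The mice of the 2 sorts stand far apart, and the difference was 5.48 (SE 0.97, limma adjusted p = 6.01e-04). With every cell thinned to 10000 counts, Epcam was detected in 24 of 31 GFP+EpCAM+ cells (77.4%), 15 of 76 GFP+ cells (19.7%) and 11 of 56 CD45+ cells (19.6%). The unthinned shares were 96.8%, 57.9% and 64.3%, at median depths of 2093397, 1614502.5 and 784891 counts. The share of GFP+ cells with Epcam RNA was thus at the level of CD45+ cells, and the share alone does not tell background from expression. Whether the CD45+ sort itself held tumour cells or their RNA was not tested. At 10000 counts Krt18 was detected in 33.9% of CD45+ cells, and 6 of 53 had a DNA deviation (defined below) of at least 0.2. Single GFP+ cells reached at most 8.07, 8.4 and 10.2 in mice 1, 2 and 3. The medians over GFP+EpCAM+ cells were 9.45, 8.71 and 9.09.

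Simple epithelial keratins, the intermediate filaments of ducts and glands, were the list with the highest share of calls: 5 of 6 members tested rose in GFP+EpCAM+ cells and 0 fell. Their median log2 difference was 4.57, against -0.16 for all genes. Krt18 stood at 13.16, 12.01 and 12.76 in GFP+EpCAM+ cells and at 11.22, 6.84 and 5.78 in GFP+ cells of mice 1, 2 and 3 (difference 4.70, SE 0.83, limma adjusted p = 6.01e-04). Its partner Krt8 stood at 10.03, 9.37 and 10.64 against 7.29, 5.82 and 3.58 (difference 4.45, SE 0.95, adjusted p = 0.00860). In both genes the GFP+ cells of mouse 1 lie closest to the GFP+EpCAM+ cells, and the mice of the 2 sorts do not overlap. Krt7, a keratin of ducts, rose by 5.04 and was 9.89, 8.48 and 9.07 against 6.71, 4.05 and 1.54. Krt19, the usual marker of pancreatic duct cells, had 7.86, 8.47 and 10.73 against 7.08, 4.67 and 2.77, a rise of 4.18 (SE 1.01, adjusted p = 0.0387), and in mouse 1 the levels were close. Krt20, a keratin of gut and other simple epithelia, rose by 4.68. Of 8 other markers of normal duct cells 0 were called, with all differences above 0 and a median of 1.19. The 6 keratins of basal and stratified epithelia gave 0 calls, with differences from -0.32 to -0.11 and summed levels of at most 19.3 CPM in GFP+EpCAM+ and 101 CPM in GFP+ cells of a mouse.

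**Figure D1:**
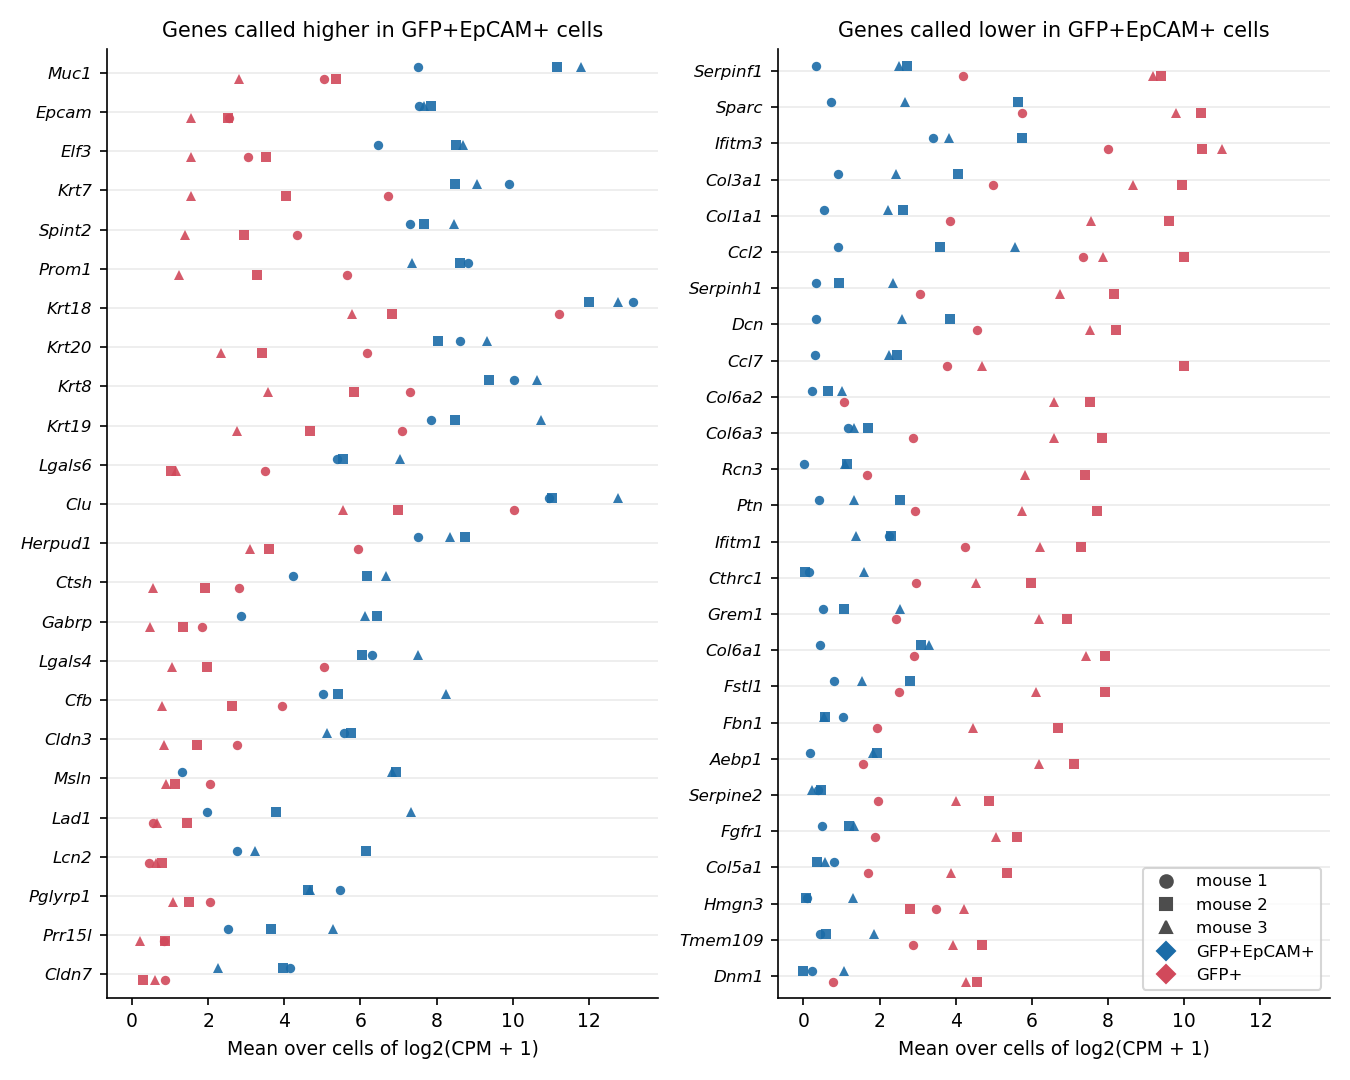
Level of the 24 genes called higher (left) and the 26 called lower (right) in GFP+EpCAM+ against GFP+ cells; each point is the mean over the cells of a mouse of log2(CPM + 1), blue for GFP+EpCAM+ and red for GFP+, with circles for mouse 1, squares for mouse 2 and triangles for mouse 3. The GFP+ circles of mouse 1 lie nearest to the blue points in most rows, as for Krt18, where they stand at 11.22 beside 6.84 and 5.78 in mice 2 and 3.

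Junction proteins of epithelia moved less evenly. Of 20 tested, Epcam, Cldn3 and Cldn7 were called higher and 0 lower; 17 differences were above 0, and their median was 0.88. Cldn3, a sealing claudin of tight junctions, was 5.56, 5.76 and 5.13 in GFP+EpCAM+ cells and 2.75, 1.70 and 0.85 in GFP+ cells, a rise of 3.72 (SE 0.83, limma adjusted p = 0.0151). Cldn7, the claudin that binds EpCAM, rose by 2.88 and was 4.16, 3.97 and 2.26 against 0.86, 0.28 and 0.61. E-cadherin, the adhesion protein of adherens junctions, encoded by Cdh1 and named here after its values were seen, was 4.98, 4.99 and 8.24 against 5.76, 2.0 and 0.79. In mouse 1 its level was higher in GFP+ cells, and the difference of 3.22 (SE 1.00) was not called (adjusted p = 0.251). Spint2 was called among 7 membrane serine proteases and inhibitors, at 7.30, 7.68 and 8.45 against 4.34, 2.93 and 1.39, a rise of 4.93. The proteases Tmprss2 and Tmprss4 differed by 1.73 and 1.15 and were not called.

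Of 14 transcription and splicing factors of epithelia, Elf3 alone was called, and 8 differences were above 0. Its level was 6.47, 8.52 and 8.68 in GFP+EpCAM+ cells and 3.06, 3.53 and 1.54 in GFP+ cells, a rise of 5.18 (SE 1.02, limma adjusted p = 0.00269) with the mice far apart. Ehf, of the same ETS subfamily, was 7.11, 5.43 and 5.50 against 6.35, 1.96 and 1.24 (difference 2.83, adjusted p = 0.467). Klf5, a zinc finger factor of proliferating epithelia, differed by 3.22 (adjusted p = 0.162). Among 17 genes of the classical subtype of pancreatic tumours, a gut-like epithelial programme, 15 differences were above 0 (median 0.68). Lgals4, a galectin of gut epithelium, was called, at 6.31, 6.03 and 7.51 against 5.05, 1.98 and 1.05, a rise of 3.92. Lgals6 rose by 4.09, but it is a near copy of Lgals4, and reads of the pair may have been divided between them, so its own value is uncertain. Onecut2, a homeodomain factor of the pancreatic lineage, had a like difference of 3.91 that was not called (adjusted p = 0.0621, and 0.0172 with the replicate block). The gastric protease gene Ctse was 8.01, 7.63 and 9.19 against 8.07, 4.12 and 1.90, equal in mouse 1 and far apart in mice 2 and 3 (difference 3.58, adjusted p = 0.149). Of 13 genes of the basal-like subtype 0 were called, and the median was 0.15; the integrin chain Itgb4 and the cornified envelope gene Sprr1a differed by 2.48 and 2.07.

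Muc1 had the largest difference among the genes called higher. It stood at 7.50, 11.15 and 11.80 in GFP+EpCAM+ cells and 5.03, 5.35 and 2.81 in GFP+ cells, a rise of 5.75 (SE 1.00, limma adjusted p = 6.01e-04). No other of the 8 mucins and trefoil factors tested was called, and their median was 0.23: the membrane mucin Muc4 differed by 2.22 (adjusted p = 0.887) and the trefoil factor Tff2 by 1.17. Secreted defence proteins of epithelia had 3 of 11 members called higher and 0 lower (median 2.04). Lcn2, a siderophore-binding protein, was 2.77, 6.14 and 3.23 against 0.46, 0.78 and 0.64, a rise of 3.42 (SE 0.76, adjusted p = 0.0126). Cfb, complement factor B, rose by 3.77, and Clu, the extracellular chaperone clusterin, rose by 4.06 and was 10.94, 11.02 and 12.76 against 10.03, 6.98 and 5.55. Herpud1, which acts in degradation of misfolded proteins at the endoplasmic reticulum, was the only one of 17 unfolded protein response genes called (rise of 3.99, adjusted p = 0.0445), beside differences of 2.29 for the factor Xbp1 and 1.51 for the chaperone Dnajb9.

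Other genes called higher belonged to no epithelial list. Prom1, which encodes the membrane protein prominin, was 8.83, 8.60 and 7.34 in GFP+EpCAM+ cells and 5.64, 3.28 and 1.23 in GFP+ cells (difference 4.88, SE 1.05, limma adjusted p = 0.00945). The mice do not overlap, and mouse 1 again had the highest GFP+ level. Gabrp, a GABA receptor subunit, rose by 3.93, the lysosomal protease gene Ctsh by 3.93, the anchoring filament gene Lad1 by 3.47, the peptidoglycan-binding Pglyrp1 by 3.37 and Prr15l by 3.17. Msln, which encodes the tumour and mesothelial antigen mesothelin, rose by 3.67 (adjusted p = 0.0451), although in mouse 1 it was lower in GFP+EpCAM+ cells. Its values were 1.32, 6.93 and 6.82 against 2.05, 1.13 and 0.89. None of the other 6 mesothelial markers was called.

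Collagens were the list with the most genes called lower: 6 of 14 chains fell in GFP+EpCAM+ cells, 0 rose, and the median was -2.52. Col3a1, a fibrillar collagen, was 0.92, 4.06 and 2.43 in GFP+EpCAM+ cells and 4.97, 9.94 and 8.65 in GFP+ cells of mice 1, 2 and 3, and fell by 5.39 (SE 1.06, limma adjusted p = 0.00269). Col1a1, the main chain of type I collagen, was 0.54, 2.62 and 2.23 against 3.86, 9.61 and 7.56 and fell by 5.22 (SE 1.01, adjusted p = 0.00242). The lowest GFP+ level of both genes, in mouse 1, was above the highest of GFP+EpCAM+ cells. The microfibrillar chains Col6a1, Col6a2 and Col6a3 fell by 3.80, 4.43 and 4.38, and the fibril-regulating Col5a1 by 3.07. Serpinh1, the collagen chaperone of the endoplasmic reticulum, stood at 0.34, 0.94 and 2.36 against 3.06, 8.16 and 6.74 and fell by 4.78 (SE 0.83, adjusted p = 6.01e-04). Rcn3, a calcium-binding protein of the same compartment, fell by 4.21. At 10000 counts Col1a1 was detected in 9.7% of GFP+EpCAM+, 61.8% of GFP+ and 12.5% of CD45+ cells (61.3%, 92.1% and 69.6% unthinned, at the median depths given for Epcam), so the GFP+EpCAM+ share was no higher than that of leukocytes. Beside these genes, 13 fibroblast markers summed to 99.4 to 131 CPM in GFP+EpCAM+ and 478 to 979 CPM in GFP+ cells of a mouse, and their part in the collagen and matrix results was not tested.

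Of 22 other matrix proteins and enzymes, 5 were lower, 0 higher, and the median was -1.31. Sparc, a collagen-binding glycoprotein, was 0.72, 5.64 and 2.66 in GFP+EpCAM+ cells and 5.75, 10.44 and 9.78 in GFP+ cells and fell by 5.65 (SE 1.07, limma adjusted p = 0.00223). The 5.64 of mouse 2 lies just below the 5.75 of GFP+ cells of mouse 1, and on summed counts the edgeR difference was -1.31. Serpinf1, the secreted anti-angiogenic protein PEDF, had the largest difference among the genes called lower, with 0.33, 2.71 and 2.50 against 4.20, 9.38 and 9.19, and fell by 5.74 (SE 0.99, adjusted p = 6.01e-04). The proteoglycan gene Dcn fell by 4.51, the bone morphogenetic protein antagonist Grem1 by 3.80 and the fibrillin gene Fbn1 by 3.64. On summed counts the edgeR differences of Serpinf1 and Dcn were -2.16 and -1.21. From outside the lists, the secreted or matrix-bound genes Ptn, Cthrc1, Fstl1, Aebp1 and Serpine2 fell by 4.03, 3.90, 3.80, 3.64 and 3.25, and the growth factor receptor gene Fgfr1 by 3.19; on summed counts Ptn and Aebp1 differed by only -0.86 and -0.90 with edgeR. Hmgn3, Tmem109 and Dnm1 fell by 3.02, 2.87 and 2.77. Grem1, Fstl1, Aebp1, Col6a1 and Dnm1 were the 5 genes called lower whose mice overlapped between the sorts, in each case through the GFP+ cells of mouse 1.

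**Figure D2:**
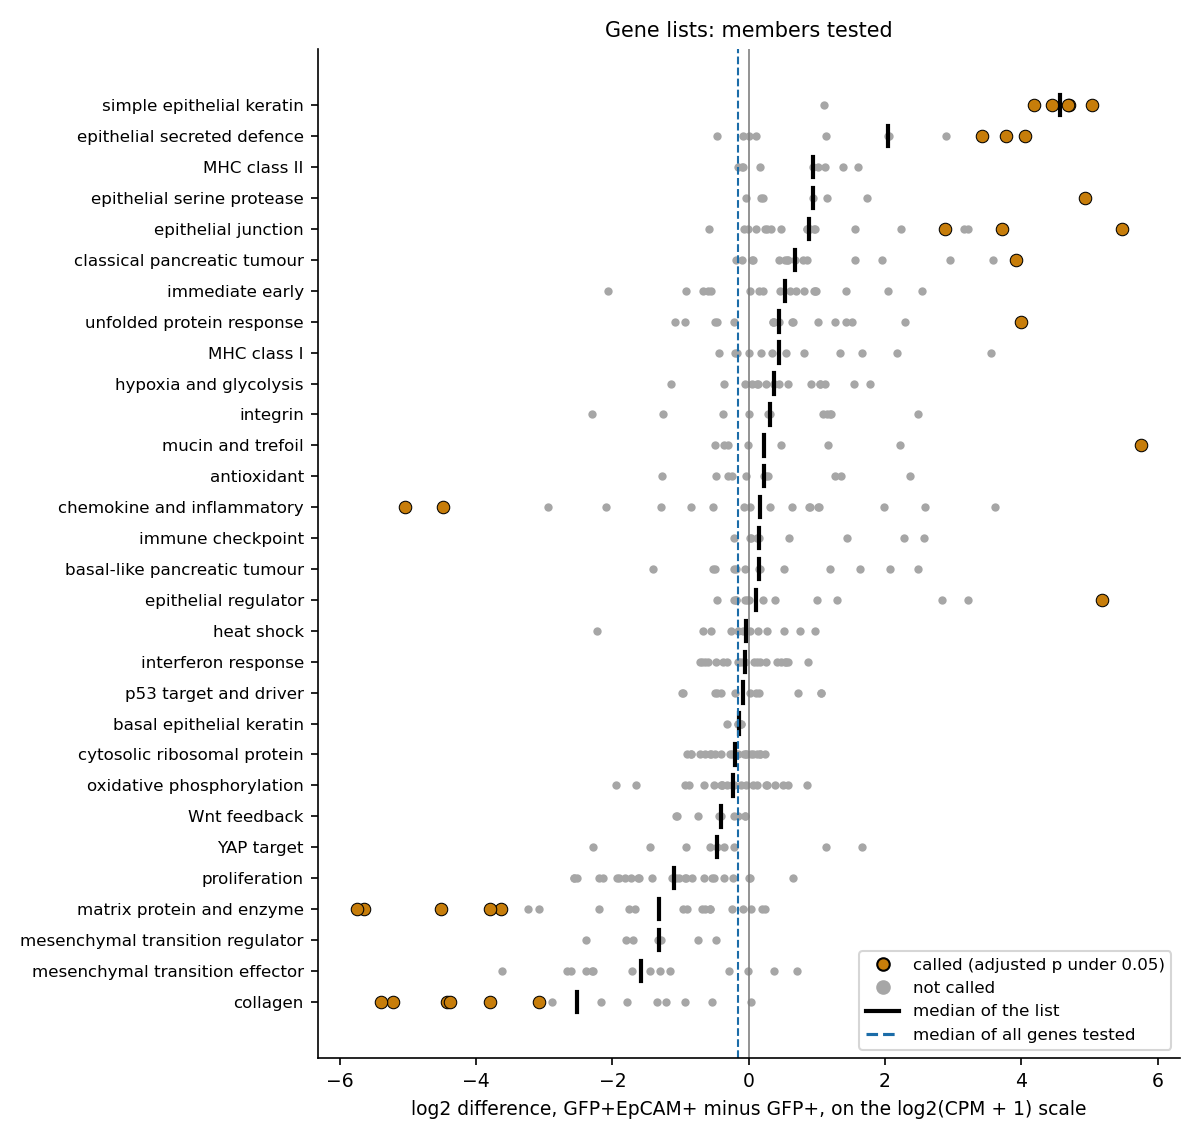
Log2 difference, GFP+EpCAM+ minus GFP+ on the log2(CPM + 1) scale, of every tested member of 30 gene lists, ordered by their medians (black bars); orange points are called genes, grey points are not, and the dashed line is the median of all genes, -0.16. Simple keratins (median 4.57) lie at the top and collagens (median -2.52) at the bottom, and most other lists hold no called gene.

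Of 18 chemokine and inflammatory genes, 2 were called lower and 0 higher, with a median of 0.16. Ccl2, which attracts monocytes, was 0.91, 3.58 and 5.56 in GFP+EpCAM+ cells and 7.34, 9.98 and 7.87 in GFP+ cells, and fell by 5.05 (SE 1.04, limma adjusted p = 0.00495). Its neighbour in function Ccl7 fell by 4.48 and was 0.30, 2.47 and 2.24 against 3.76, 9.99 and 4.69. Cxcl16, a membrane-bound chemokine, stood higher in GFP+EpCAM+ cells of each mouse, with a difference of 3.62 that was not called (adjusted p = 0.0979, and 0.0382 with the replicate block). The interferon-induced membrane proteins Ifitm3 and Ifitm1 fell by 5.49 and 3.95: Ifitm3 was 3.40, 5.75 and 3.83 against 8.00, 10.46 and 10.99. On summed counts their differences were only -1.21 and -1.02 with edgeR and -0.83 and -0.62 with DESeq2. Among 21 other interferon-stimulated genes 0 were called and the median was -0.05. Of 12 genes of antigen presentation on MHC class I 0 were called (median 0.44); H2-K1 differed by 3.56 (adjusted p = 0.116, 0.0382 with the replicate block) and H2-D1 by 2.18. The 9 class II genes also gave 0 calls (median 0.94), with Cd74 at 1.39 and H2-Eb1 at 1.60.

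The genes of mesenchymal transition themselves were not called. All 8 transcription factors tested had differences below 0 (median -1.32, against -0.16 for all genes, of which 71.9% were below 0). Twist1 was 0.00, 0.16 and 0.16 in GFP+EpCAM+ cells and 0.08, 3.38 and 2.27 in GFP+ cells (difference -1.80, SE 0.46, limma adjusted p = 0.0621, and 0.0371 with the replicate block). The GFP+ mean was thus at the GFP+EpCAM+ level in mouse 1 alone. Only 33 of 76 GFP+ cells held a Twist1 count, and each mouse had GFP+ cells without one. Prrx1, a homeobox factor of mesenchyme, differed by -2.39 (adjusted p = 0.378) and Snai1, the E-box repressor Snail, by -1.70 (adjusted p = 0.469). Of 14 structural and surface genes, 12 differences were below 0 (median -1.58). Fn1, which encodes fibronectin, was 3.97, 4.63 and 7.02 against 6.81, 10.07 and 9.60 (difference -3.62, adjusted p = 0.0979, and 0.0297 with the replicate block). The integrin chain Itga5 that binds fibronectin differed by -2.30. Vim, the vimentin of mesenchymal cells, stood at 6.84, 6.59 and 9.52 against 7.93, 9.57 and 9.35 (difference -1.30, SE 0.93, adjusted p = 1). Its levels overlap between the sorts, with GFP+EpCAM+ cells of mouse 3 as high as GFP+ cells. Cyr61 and Axl, among 9 YAP targets with 0 calls (median -0.46), differed by -2.29 and -1.45.

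None of 13 fibroblast markers was called, and all 13 differences were below 0 (median -0.73), as were 71.9% of those of all genes tested. The sum of these markers in CD45+ cells of a mouse was 25.2 to 159 CPM, beside the sums given for the 2 sorts with the collagens. The receptor genes Pdgfra and Pdgfrb differed by -2.62 and -2.23 and the protease gene Fap by -2.21. The 12 pan-leukocyte genes summed to 9.71 to 352 CPM, 127 to 590 CPM and 12341 to 13263 CPM in the 3 sorts, with 0 calls and a median of -0.25. Ptprc, which encodes CD45, was 1.05, 0.54 and 1.03 against 1.05, 0.84 and 0.41. Macrophage markers summed to 420 to 3826 CPM in GFP+EpCAM+ and 283 to 957 CPM in GFP+ cells, against at least 19449 CPM in CD45+ cells, and of these 15 genes the endotoxin coreceptor gene Cd14 had the largest difference (3.55, limma adjusted p = 0.170). Neutrophil markers summed to 3.56 to 243 CPM and 13 to 1179 CPM, with 0 calls. Endothelial, T cell, B cell, dendritic, acinar, islet and red cell lists summed to at most 81.5 CPM in a mouse of either sort and gave 0 calls. The part of other cell types in the differences was not tested. The calls of 2 fits to fewer cells follow, neither of which selected cells by fibroblast genes. Without the 2 GFP+EpCAM+ and 18 GFP+ cells whose pan-leukocyte sum reached that of the lowest CD45+ cell (442 CPM), 21 and 27 genes were called, 20 and 23 of them shared. Among cells whose DNA deviated from the leukocyte profile (defined below; 27 and 59 cells), 46 and 38 were called, 23 and 26 of them shared.

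No cell cycle gene was called. Of 26 tested, 23 differences were below 0 (median -1.09), where 71.9% of all genes tested were below 0 (median -0.16). Summed, these genes reached 1532 to 2425 CPM in GFP+EpCAM+ and 2105 to 2785 CPM in GFP+ cells of a mouse, so the levels overlap. Cdc6, which loads the replicative helicase, was 1.08, 0.16 and 0.32 in GFP+EpCAM+ cells and 2.87, 2.96 and 3.41 in GFP+ cells (difference -2.56, SE 0.69, limma adjusted p = 0.0968, and 0.0400 with the replicate block). Here mouse 1 did not stand apart. Tyms, the thymidylate synthase gene, and Aurkb, a mitotic kinase gene, differed by -2.52 and -2.19 (adjusted p = 0.480 and 0.393). The immediate early factor Atf3 and the ectoenzyme gene Nt5e, from lists with 0 calls, differed by 2.55 and 2.28. Heat shock, hypoxia, ribosomal protein, oxidative phosphorylation, Wnt feedback, p53, antioxidant, integrin and immune checkpoint lists also held no called gene, with medians from -0.40 to 0.37.

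Cells within a sort were not alike. The level of 6 simple keratins minus that of 14 collagens, each a mean of log2(CPM + 1) in the cell, was above 0 in 30 of 31 GFP+EpCAM+ cells (96.8%) and 41 of 76 GFP+ cells (53.9%). By mouse, it was above 0 in 12 of 12, 9 of 10 and 9 of 9 GFP+EpCAM+ cells, and in 26 of 31, 6 of 18 and 9 of 27 GFP+ cells. Its median was 7.88, 7.43 and 8.68 in GFP+EpCAM+ cells, and 5.92, -2.46 and -1.68 in GFP+ cells. GFP+ cells of mouse 1 were thus mostly keratin-high like GFP+EpCAM+ cells, whereas those of mice 2 and 3 were mostly collagen-high, and each tumour held GFP+ cells of both kinds. Within a sort and mouse, keratin and collagen levels had Spearman correlations of -0.31, -0.60 and 0.03 in GFP+EpCAM+ and -0.30, -0.69 and -0.36 in GFP+ cells over 9 to 31 cells, which share depth and scaling. Keratin levels of GFP+ cells correlated with depth at -0.21, -0.62 and -0.28. These keratins and collagens are those of the calls above, so the counts describe cells and add no test.

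**Figure D3:**
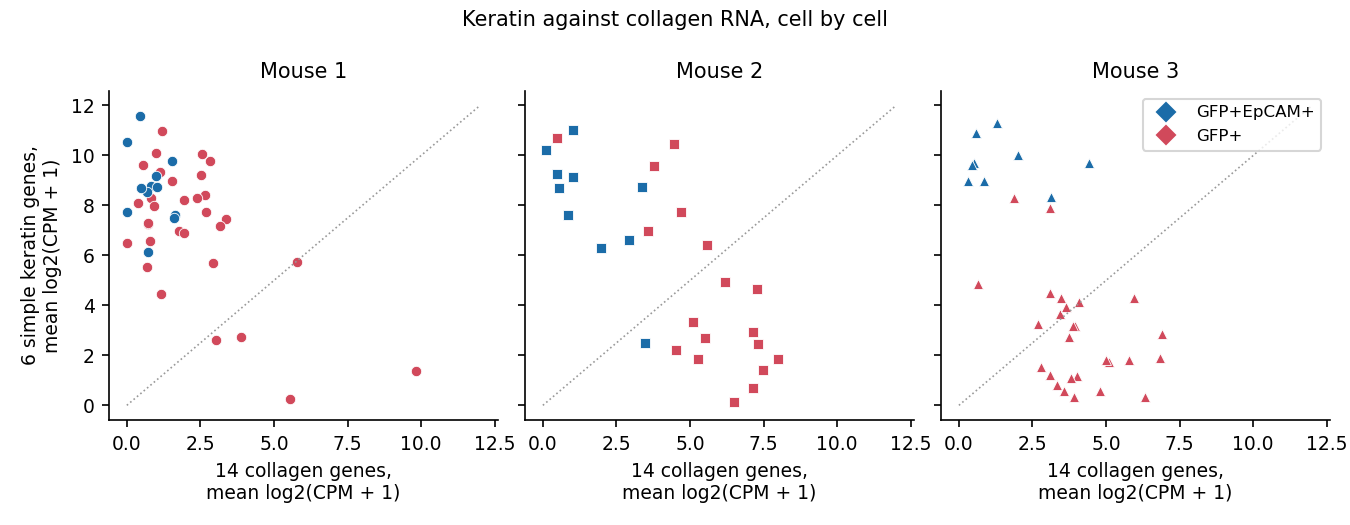
Mean log2(CPM + 1) of 6 simple keratins (vertical) against 14 collagens (horizontal) in each cell of the 3 mice, blue for GFP+EpCAM+ and red for GFP+; on the dotted line both are equal. Blue cells lie above the line in 30 of 31 cases, and red cells in 26 of 31, 6 of 18 and 9 of 27 cases in mice 1, 2 and 3.

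The genomic DNA of the same cells is a readout that neither gate used. For cells with at least 50000 autosomal reads, the share of reads on each chromosome was divided by the median share in CD45+ cells of the same mouse, and the autosome deviation is the SD over 19 autosomes of the log2 of these ratios. Its median was 0.347, 0.318 and 0.321 in GFP+EpCAM+ cells and 0.350, 0.322 and 0.347 in GFP+ cells, a difference of -0.0108 that is within the spread over mice (exact permutation test, two-sided, p = 0.2; 3 against 3 cannot go below 0.1). It was lower in GFP+EpCAM+ cells in 3 of 3 mice, and with the sorts paired by mouse the exact sign-flip permutation gave p = 0.25, the smallest that 3 pairs allow. In CD45+ cells it was 0.0392, 0.140 and 0.0807. A deviation of at least 0.2, a threshold set after the values were seen, was found in 27 of 27 GFP+EpCAM+, 59 of 62 GFP+ and 6 of 53 CD45+ cells. All GFP+EpCAM+ cells and all but 3 GFP+ cells thus had chromosome shares past this threshold.

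By single chromosome, the mice of the 2 sorts did not overlap in 3 of 19 autosomes (15.8%). Chromosome 2 had ratios of 1.12, 1.06 and 1.13 in GFP+EpCAM+ cells and 1.16, 1.31 and 1.30 in GFP+ cells of mice 1, 2 and 3, chromosome 5 had 1.2, 1.2 and 1.13 against 1.23, 1.31 and 1.26, and chromosome 8 had 1.11, 1.13 and 1.07 against 1.05, 1.01 and 0.996 (exact permutation p = 0.1 each, before any adjustment over 19 chromosomes). Low shares of chromosomes 4, 7, 9, 10, 12, 13 and 14 were common to both sorts, with mean ratios between 0.736 and 0.798. The ratios are relative to all autosomal reads of a cell and do not count copies. On X, GFP+EpCAM+ cells had 1.47, 1.5 and 1.44 and GFP+ cells 1.47, 0.924 and 0.945, so that mouse 1 was alike in both sorts and mice 2 and 3 were not (exact p = 0.2). Chromosome 18 had 1.16, 1.10 and 1.19 against 1.15, 0.753 and 0.747 (exact p = 0.2), in the same pattern. Y, read from 3 bins only, had 0.638, 0.489 and 0.0554 against 0.582, 0.0052 and 0.0190 (exact p = 0.5). Chromosomes 3 and 16 also placed GFP+ cells of mouse 1 (1.48 and 1.12) with GFP+EpCAM+ cells (at least 1.31 and 1.03), apart from those of mice 2 and 3 (at most 1.26 and 0.951). Xist RNA, made from an inactive X, was low in both sorts, at 1.59, 1.25 and 0.44 against 2.76, 1.44 and 0.66.

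**Figure D4:**
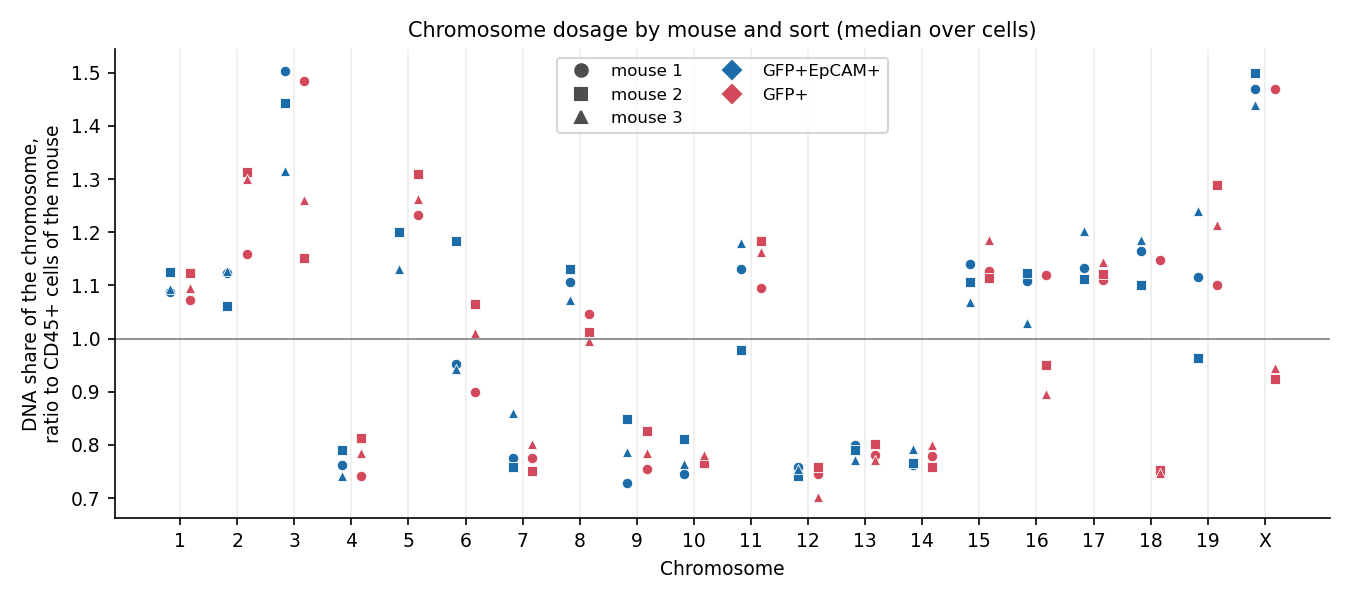
Share of DNA reads on each autosome and X, as the median over cells of the ratio to CD45+ cells of the same mouse (line at 1), blue for GFP+EpCAM+ and red for GFP+, with circles, squares and triangles for mice 1, 2 and 3. On chromosome 18 and X the red circle of mouse 1 (1.15 and 1.47) lies with the blue points, and the red squares and triangles lie lower.

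The GFP+ cells of mouse 1 thus lay nearer to GFP+EpCAM+ cells in RNA and in the dosage of X and chromosome 18. In the 24 genes called higher, the median difference was 2.13 in mouse 1, 4.48 in mouse 2 and 6.30 in mouse 3, and in the 26 genes called lower it was -2.46, -5.16 and -4.36. Cell by cell, an X ratio of at least 1.2 was found in 8 of 10, 6 of 8 and 6 of 9 GFP+EpCAM+ cells, and in 22 of 26, 1 of 13 and 3 of 23 GFP+ cells. All 20 GFP+EpCAM+ cells above this threshold, which was set after the values were seen, had a keratin level above the collagen level, as did 6 of the 7 below it. Of GFP+ cells, 20 of 26 above it and 11 of 36 below it did, with median differences of 5.43 and -2.75. Within GFP+ cells of mouse 1 the counts were 19 of 22 and 2 of 4, in mouse 2, 0 of 1 and 4 of 12, and in mouse 3, 1 of 3 and 5 of 20. Within a mouse the classes are small, and X dosage and mouse cannot be told apart in the GFP+ sort. GFP+EpCAM+ cells of mice 2 and 3 with a low X ratio were 5 in number and had a chromosome 18 ratio of 0.87 and 0.88 (medians of 2 and 3 cells), against 1.11 and 1.21 in those with a high one. The median of mouse 3 hides a cell with a low X ratio (0.986) and a chromosome 18 ratio of 1.24. In mouse 1 the 2 cells with a low X ratio had a median chromosome 18 ratio of 1.15, close to the 1.2 of those with a high X ratio.

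**Figure D5:**
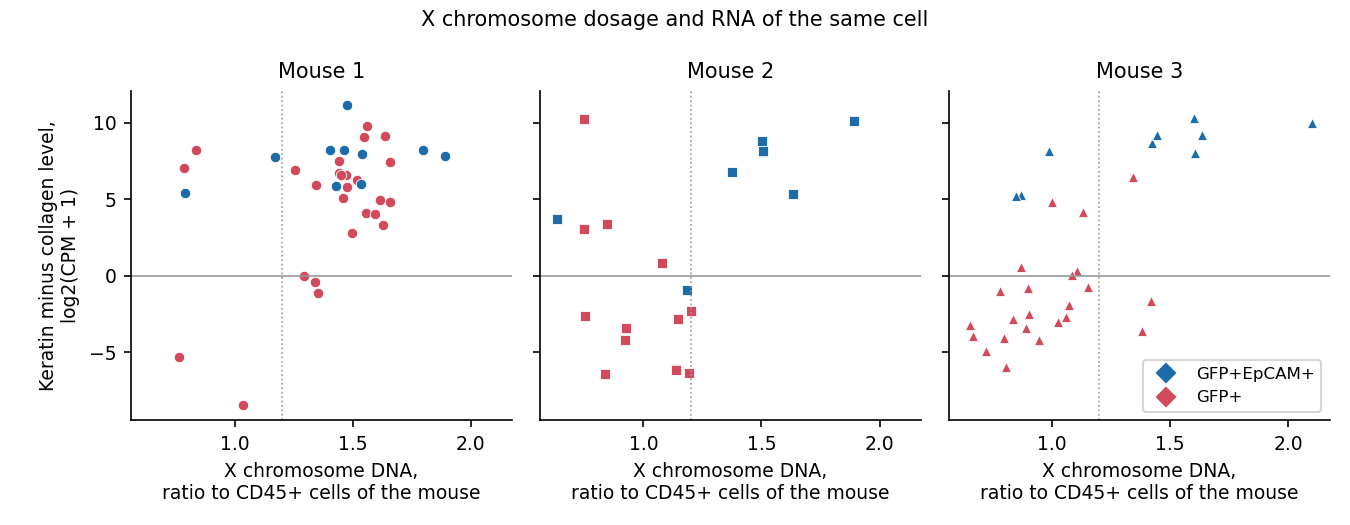
Keratin minus collagen level (vertical, log2(CPM + 1)) against the X chromosome ratio (horizontal; dotted line at 1.2) of the same cell, blue for GFP+EpCAM+ and red for GFP+, by mouse. In mouse 1 most cells of both sorts lie in the upper right, and in mice 2 and 3 most GFP+ cells lie at lower ratios. In mice 2 and 3, 6 of 8 and 6 of 9 blue cells lie at or beyond the line. The red counts there are 1 of 13 and 3 of 23.

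The number of genes detected per cell, with each cell thinned to 10000 counts, was 1361, 2122 and 2176 in GFP+EpCAM+ cells and 1712, 2647 and 1812 in GFP+ cells (means over the cells of mice 1, 2 and 3). The mean difference of -171 genes is within the spread over mice (1886 ± 455 against 2057 ± 513, SD, n = 3; exact permutation test, two-sided, p = 0.7), and it was 6.05 without mouse 2. RNA depth of the cells kept was 12783 to 9788251 counts in GFP+EpCAM+ and 12576 to 17845580 in GFP+ cells. The deepest cell gave 35.1% of the summed counts of GFP+EpCAM+ cells of mouse 2 and at most 26.1% in the other mice of either sort.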

How the data were processed

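Per the labels' protocols, sorted single cells were lysed, cDNA was amplified for 15 cycles after SMART-Seq2, the genome was then amplified in the same tube with the SeqXE kit, and 76-base single reads were sequenced. The submitters' processing notes name STAR, kallisto, Bowtie 1.0 and the mouse build mm9; their roles are not stated in the labels. RNA values are the authors' deposited expected counts, 1 row a gene, 97.36% of them whole in the primary cells, and the DNA file holds counts per bin as deposited by the authors (4730 autosomal bins of 5000). After 92 spike-in rows and 4 rows with repeated symbols were left out, 24424 genes remained, and 0 columns were unused. Genes with a count in at least 10 kept cells of the 2 sorts were tested.

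Means over cells of log2(CPM + 1), 1 per mouse and sort of the 4 primary sorts (the 2 compared, EpCAM+ and CD45+), were fitted with limma 3.58.1 (trend, 106 total degrees of freedom after moderation), because 1 cell can give most of a sum. edgeR 4.0.16 and DESeq2 1.42.0 on sums of expected counts rounded to whole numbers, other pseudocounts, filters and scalings, a replicate block (for cell measures, sign flips within mice, added after the values were seen) and fits without a mouse were alternatives. The limma fit was also run on counts simulated without differences between mice, so that run does not show its error rate with 3 mice. Thinning, exact permutation tests and motif searches used Python 3.11.15, numpy 2.4.6 and scipy 1.17.1. The mouse is the replicate. Mouse numbers pair the sorts because they name the same animal, per the labels; deviations from the sort means of GFP+EpCAM+ and GFP+ cells correlated at 0.45, 0.07 and 0.27 in mice 1 to 3. No 2 libraries of a sort and mouse agreed within sampling noise (lowest chi-square per degree of freedom 4.16 in RNA and 1.88 in DNA). Reads carry no molecular identifiers.

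Members and gene lists were chosen with earlier results of these data known, and the lists come from general knowledge. Genes named were Epcam, Krt19, Vim and Ptprc, up to 12 called genes per direction with the largest difference, a mean of at least 1 and the same direction in 3 mice, and from each list the called members, or those with the smallest p up to 3. Further called genes were added to complete the account of the 50, and most marker lists are given by their sums. Some genes that this rule names are not reported here.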

Additional observations from a re-analysis of the deposited data

How the results depend on the processing

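The directions of the 50 called genes were the same in all 15 alternatives, but the number of calls was not. Genes called higher and lower, 24 and 26 as reported, were 43 higher (29 lower) with a pseudocount of 0.1 CPM, 58 and 43 with at least 2000 genes and 50000 counts per cell, 32 and 29 from the 2 sorts alone, and 47 and 44 with a replicate block, which pairs the sorts of a mouse. With edgeR on sums they were 0 and 0 (2042 genes at an unadjusted p under 0.05), with DESeq2 383 and 474. Centring each mean on its median over genes, which moved the median difference of all genes from -0.16 to 0.07, gave 0 and 0 (limma, 975 at an unadjusted p under 0.05), thinning to 10000 counts 0 and 0 (772), no gene filter 0 and 0 (866), and the log2 of the mean CPM 0 and 2 (1010); the cause was not tested. Chosen after seeing the data, the limit to cells with a DNA deviation of at least 0.2 gave 46 and 38. Leaving out cells whose pan-leukocyte sum reached that of the lowest CD45+ cell, also chosen then, gave 21 and 27. Without 1 mouse in turn the counts ran from 0 to 41 higher and from 4 to 33 lower, lowest without mice 3 and 2. The difference in detected genes, -171 as reported, was -459 without thinning and -834.5 at 50000 counts with the strict cell filter; it ran from -438.1 to 6.05 without 1 mouse, and that in autosome deviation from -0.0148 to -0.00348. Of genes not called, Ptprc changed sign to -0.02 with the strict cell filter and ran from -0.15 to 0.31 without 1 mouse, and Snai1 to 0.55 with DESeq2; of the uncalled genes named, the replicate block called Onecut2, Cxcl16, H2-K1, Twist1, Fn1 and Cdc6 and no other.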
